A study of Rattus norvegicus with 8 samples.

Results

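Cytosolic heat shock proteins and the co-chaperones that work with them were followed in the injected striatum of rats, all adult Wistar males. The 10 genes listed for this group are the J-domain proteins Dnajb5, Dnajb1, Dnaja1 and Dnajb6, the Hsp70 Hspa8, the Hsp110 proteins Hspa4 and Hsph1, the small heat shock protein Hspb1, and the Hsp90 genes Hsp90aa1 and Hsp90ab1. A probe set, the group of short probes that reads a transcript on the Affymetrix Rat Genome 230 2.0 array, counted as a member where the platform annotation gave it a single gene symbol from that list. This left 14 of 31099 probe sets and 8 of the 10 genes, of 14217 genes with a single-symbol probe set on the array. Hspa8 and Hsp90aa1 are read only by probe sets that the annotation assigns to several genes, and no level is given for them. The list was drawn up with the group comparison in view, because Dnajb5 stood near its top by p, so the differences between the groups are given for these genes as a description and not as a test.

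Chaperones of this group keep proteins folded in the cytosol. Hsp70 proteins bind unfolded stretches and release them in a cycle driven by ATP: J-domain proteins deliver the substrate and start the cycle, and Hsp110 proteins such as Hspa4 and Hsph1 exchange the nucleotide that ends it. Hsp90 proteins finish the folding of signalling proteins, and small heat shock proteins hold unfolding proteins without ATP. Heat, oxidants and misfolded proteins switch many of these genes on through heat shock factor 1, while Hspa8 and Hsp90ab1 are made in large amounts in unstressed cells. In neurons, Hsp70 and its partners also uncoat synaptic vesicles and limit protein aggregates.

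The injected fluid, 5 µl in either group, was a baculovirus vector for 4 arrays and phosphate-buffered saline (PBS) for the other 4. Each dose of vector held 50000000 particles, made inactive beforehand by 1 hour of ultraviolet light at 254 nm. The labels of 1 PBS array leave out the strain, which the design text gives for all rats. Injections went to 2 sites, rats weighed 250 to 300 g, no age in days or weeks is listed, and tissue was taken 48 hours later. The vector is an insect virus that enters mammalian cells and does not replicate there. The design text speaks of 7 rats with PBS on the opposite side, and nothing ties an array to a rat. If each of the 8 arrays came from 1 of these 7 rats, some arrays share an animal. The main tests treat all arrays as independent, which such sharing would break. Both groups share the needle injury. Values are intensities in arbitrary array units, and differences are on the scale log2(intensity + 16), inactivated baculovirus minus PBS.

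Members were bright on the arrays, apart from Dnajb5. The main probe sets of Dnaja1, Hsph1 and Hsp90ab1, meaning the brightest single-symbol probe set of each, stood above 97.6%, 96.2% and 99.1% of all probe sets, and that of Dnajb5 above 74.2%. A filter at the 40th percentile of level, an intensity of about 26.0, kept 18625 probe sets for testing, among them 13 of the 14 members. It left out 1 dim probe set of Dnajb5, and all 8 measured genes stayed in.

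Tissue markers were present on all 8 arrays. The striatal gene Ppp1r1b was at 1193 ± 131 after inactivated baculovirus and 1152 ± 180 after PBS, and the neuronal gene Snap25 at 1751 ± 116 and 1796 ± 165 (SD, n = 4 each). The cortical gene Slc17a7 was at 1034 ± 162 and 915 ± 309, although striatal neurons are not known to make it. The T cell markers Cd3e and Cd3d were below the level filter in both groups. PBS replicate 4 stood apart by the choroid plexus gene Ttr, at 47.7 against 1563 to 1968 on the other arrays. PBS replicate 3 stood apart by Slc17a7, at 454 against 909 to 1270 on the others. Members are given below with and without these 2 arrays where that matters. In such tissue RNA, fewer cells of a type and less RNA per cell cannot be told apart.

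The promoter windows of 9 of the 10 genes were found in the RefSeq table for the build GRCr8, each running from 250 bases before the start site to 50 after it. They are shown for Dnajb5, the gene with the largest difference, for Hsph1 and Dnaja1, whose main probe sets were lower on all 4 arrays of the inactivated baculovirus group than on any PBS array, and for Hspb1, the small heat shock protein. Capitals mark the letters GAANNTTC or TTCNNGAA, a pair of neighbouring units of the element that heat shock factors bind. Both patterns read the same on either strand, and matches may overlap. The windows are chr5:61972456-61972755 (plus strand) for Dnajb5, chr12:10427118-10427417 (plus strand) for Hsph1, chr5:60638154-60638453 (plus strand) for Dnaja1 and chr12:26432252-26432551 (minus strand) for Hspb1, each printed 5′ to 3′ along its gene.
Dnajb5: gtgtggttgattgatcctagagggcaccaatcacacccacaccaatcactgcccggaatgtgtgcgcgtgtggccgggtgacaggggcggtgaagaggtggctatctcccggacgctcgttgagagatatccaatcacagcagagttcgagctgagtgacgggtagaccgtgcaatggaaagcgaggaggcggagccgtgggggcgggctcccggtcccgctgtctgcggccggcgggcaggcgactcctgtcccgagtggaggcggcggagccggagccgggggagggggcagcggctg
Hsph1: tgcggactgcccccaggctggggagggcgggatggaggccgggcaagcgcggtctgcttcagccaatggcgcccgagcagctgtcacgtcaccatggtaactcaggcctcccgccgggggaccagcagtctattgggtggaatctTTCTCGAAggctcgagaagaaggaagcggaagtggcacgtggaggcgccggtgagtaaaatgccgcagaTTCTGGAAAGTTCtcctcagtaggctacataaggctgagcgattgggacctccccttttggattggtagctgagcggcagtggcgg
Dnaja1: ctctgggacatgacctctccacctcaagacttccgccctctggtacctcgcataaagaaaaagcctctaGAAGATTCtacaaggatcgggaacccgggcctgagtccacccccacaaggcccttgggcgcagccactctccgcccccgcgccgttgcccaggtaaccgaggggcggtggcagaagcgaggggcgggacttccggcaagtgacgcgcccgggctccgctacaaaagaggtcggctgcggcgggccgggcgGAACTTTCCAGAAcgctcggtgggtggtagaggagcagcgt
Hspb1: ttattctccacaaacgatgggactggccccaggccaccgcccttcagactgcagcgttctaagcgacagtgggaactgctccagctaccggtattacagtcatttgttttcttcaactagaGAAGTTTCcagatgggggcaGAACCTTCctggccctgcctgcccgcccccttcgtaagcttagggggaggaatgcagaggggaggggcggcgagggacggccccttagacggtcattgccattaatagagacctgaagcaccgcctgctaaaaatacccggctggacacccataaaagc

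Hsph1 had 3 matches and Dnaja1 3. In each of them, 2 overlapped by 3 letters to give a run of 3 units, TTCTGGAAAGTTC beginning 36 bases before the Hsph1 start site and GAACTTTCCAGAA beginning 9 bases after the Dnaja1 start site. Hspb1 had 2 separate matches, beginning 129 and 109 bases before its start site. Dnajb1 also had 2 and Dnajb6 had 1. Dnajb5, Hspa4 and Hsp90ab1 had 0 in this window, which says only that these letters are not there. Either pattern was found in 15.9% of 33469 promoter windows of the same length, and a run of 3 units, meaning that GAANNTTC and TTCNNGAA share 3 letters in either order, in 0.798%. Among the 8 measured genes, 5 held either pattern and 2 held a run of 3 units. A match is a description of the sequence and not a site shown to be bound.

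**Figure D1:**
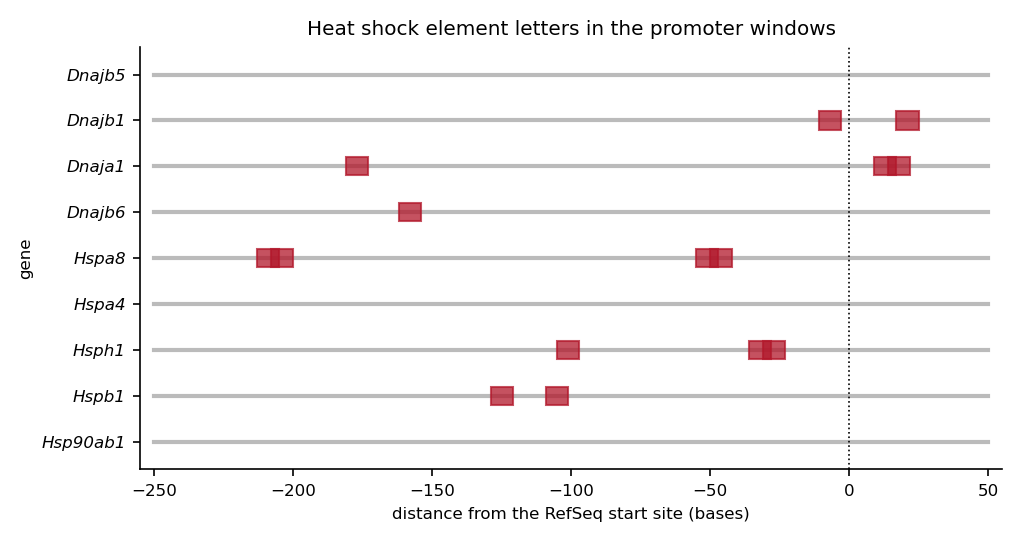
Position of GAANNTTC or TTCNNGAA in the promoter windows of 9 genes; the x axis is the distance in bases from the RefSeq start site (dotted line), grey lines are the windows, red boxes are matches and darker overlaps are runs of 3 units. Hspa8 carries 4 matches, Hsph1 and Dnaja1 3 each, and Dnajb5, Hspa4 and Hsp90ab1 none in this window.

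Over the whole table, the comparison between the groups gave no call: 0 of 18625 probe sets, 0.0%, passed a limma adjusted p of 0.05, and 1254, 6.73%, were under an unadjusted p of 0.05. Of the 13 member probe sets, limma called 0 after adjustment. Under an unadjusted 0.05, where 2.51% of all probe sets were higher and 4.22% lower (468 and 786, or 263 and 1085 with the arrays centred on their medians), it put 1 higher (the main probe set of Dnajb5) and 1 lower (that of Hsph1). The methods' t-test also called 0 of the 13 after adjustment and put 3 under 0.05 before it, beside 6.72% of all probe sets. Because the list was chosen on this comparison, nothing is read from these counts. The 8 genes did not move one way, with 3 higher and 5 lower and a median difference of -0.0039, beside 0.015 for all 10539 genes tested. The 3 higher genes were Dnajb5, Hspb1 and Hsp90ab1. Of the 5 lower ones, Dnajb1 and Hspa4 lay so close to 0 that their sign turned, with quantile normalization for Dnajb1 and when 1 of several arrays was left out for both. The count of higher genes was 5 without inactivated baculovirus replicate 2 or without PBS replicate 4.

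**Figure D2:**
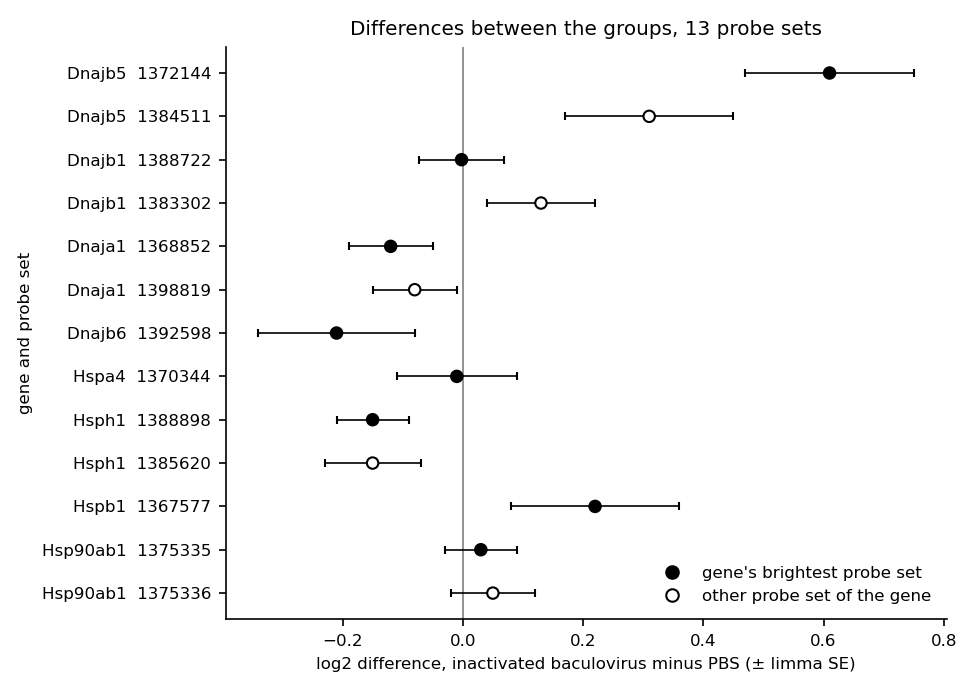
Log2 difference between the group means for the 13 member probe sets above the level filter, with limma standard errors as bars; filled points are the brightest probe set of each gene and open points its other probe sets. Both probe sets of Dnajb5 lie furthest to the right, at 0.61 and 0.31, those of Hsph1 coincide at -0.15, and those of Hsp90ab1 lie near 0.

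Among the J-domain proteins, Dnajb5 had the largest difference of the 8 genes. This class B J-domain protein is a relative of the heat-inducible Dnajb1. Its main probe set, 1372144_at, read 182, 180, 118 and 135 on inactivated baculovirus replicates 1 to 4. On PBS replicates 1 to 4 it read 83.5, 81.4, 120 and 92.2. All 4 inactivated baculovirus arrays lay above the PBS mean and 3 lay above every PBS array, while replicate 3 fell just under PBS replicate 3. The means were 154 ± 32.4 and 94.4 ± 18.0 (SD, n = 4 each), a difference of 0.61 ± 0.14 (log2 ± limma SE), or 1.53-fold. Of all probe sets tested, 20 (0.107%) had a difference that high or higher. Dnajb5 was listed for standing near the top by p in this comparison, so nothing is read from that rank. With any 1 array left out the difference lay between 0.53 and 0.72. It was 0.72 without PBS replicate 3 and 0.61 without PBS replicate 4.

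The other probe sets of Dnajb5 did not repeat the pattern array by array. The second, 1384511_at, read 46.7, 51.2, 61.0 and 40.3 after inactivated baculovirus and 45.1, 41.7, 24.5 and 38.6 after PBS. Its mean was also higher, by 0.31 ± 0.14 on the log2 scale, and again 3 of 4 inactivated baculovirus arrays lay above every PBS array. Here, however, replicate 3 was the highest array and replicate 4 the low one of the group, and PBS replicate 3, the highest PBS array on the main probe set, was the lowest of all 8. On deviations from the group means, these 2 probe sets of 1 gene had r = -0.64 and rho = -0.714 (exact permutation p = 0.108 and 0.0833, Benjamini-Hochberg 0.377 and 0.194 over 7 same-gene pairs), and r = 0.201 over the 8 arrays as they stood. The third probe set, 1375762_at, was below the level filter, at 13.1 ± 8.51 and 9.08 ± 4.42 in intensity (SD, n = 4 each). Its r with the second was 0.744 and rho 0.81 (exact permutation p = 0.0191 and 0.0139, Benjamini-Hochberg 0.134 and 0.0972), and its r with the main one -0.24 and rho -0.357 (exact permutation p = 0.559 and 0.438, Benjamini-Hochberg 0.835 and 0.766). The dimmer probe sets thus had positive r with each other within groups, and the main one had negative r with both, although 0 of the 7 same-gene pairs passed after adjustment. When the 3 probe sets were averaged, the difference of Dnajb5 was 0.37.

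Dnajb1, the heat-inducible J-domain partner of Hsp70, was level between the groups on its main probe set. That probe set read 333, 308, 321 and 314 after inactivated baculovirus and 319, 318, 308 and 333 after PBS, so that the groups spanned the same values. Its within-group SD of 0.05 on the log2 scale was lower than that of all but 0.628% of the probe sets tested. The dimmer probe set, 1383302_at, read 207, 198, 228 and 183 against 199, 178, 163 and 197, a difference of 0.13 ± 0.09 (log2 ± SE) with overlapping groups. Averaging both moved the difference of Dnajb1 from -0.0021 to 0.07.

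Dnaja1, a class A J-domain protein that serves Hsp70 in the cytosol, was slightly lower on both of its probe sets. The main one, 1368852_at, read 791, 791, 758 and 691 after inactivated baculovirus and 806, 804, 868 and 808 after PBS. Every inactivated baculovirus array lay below every PBS array. The difference was -0.12 ± 0.07 (log2 ± SE), a fold of 0.92, and -0.07 without inactivated baculovirus replicate 4, its lowest array. The other probe set, 1398819_at, read 736, 769, 802 and 716 against 831, 744, 782 and 854, a difference of -0.08 ± 0.07 in which the groups overlapped.

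Dnajb6, which keeps polyglutamine and other aggregating proteins soluble, was read by 1 single-symbol probe set. It was at 343, 287, 335 and 335 after inactivated baculovirus and 381, 280, 489 and 385 after PBS. The PBS arrays held both the highest and the lowest value. The difference of -0.21 ± 0.13 (log2 ± SE) was -0.09 without PBS replicate 3 and -0.34 without PBS replicate 2. Another 2 probe sets that the annotation gives to Dnajb6 together with pseudogenes were not used.

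**Figure D3:**
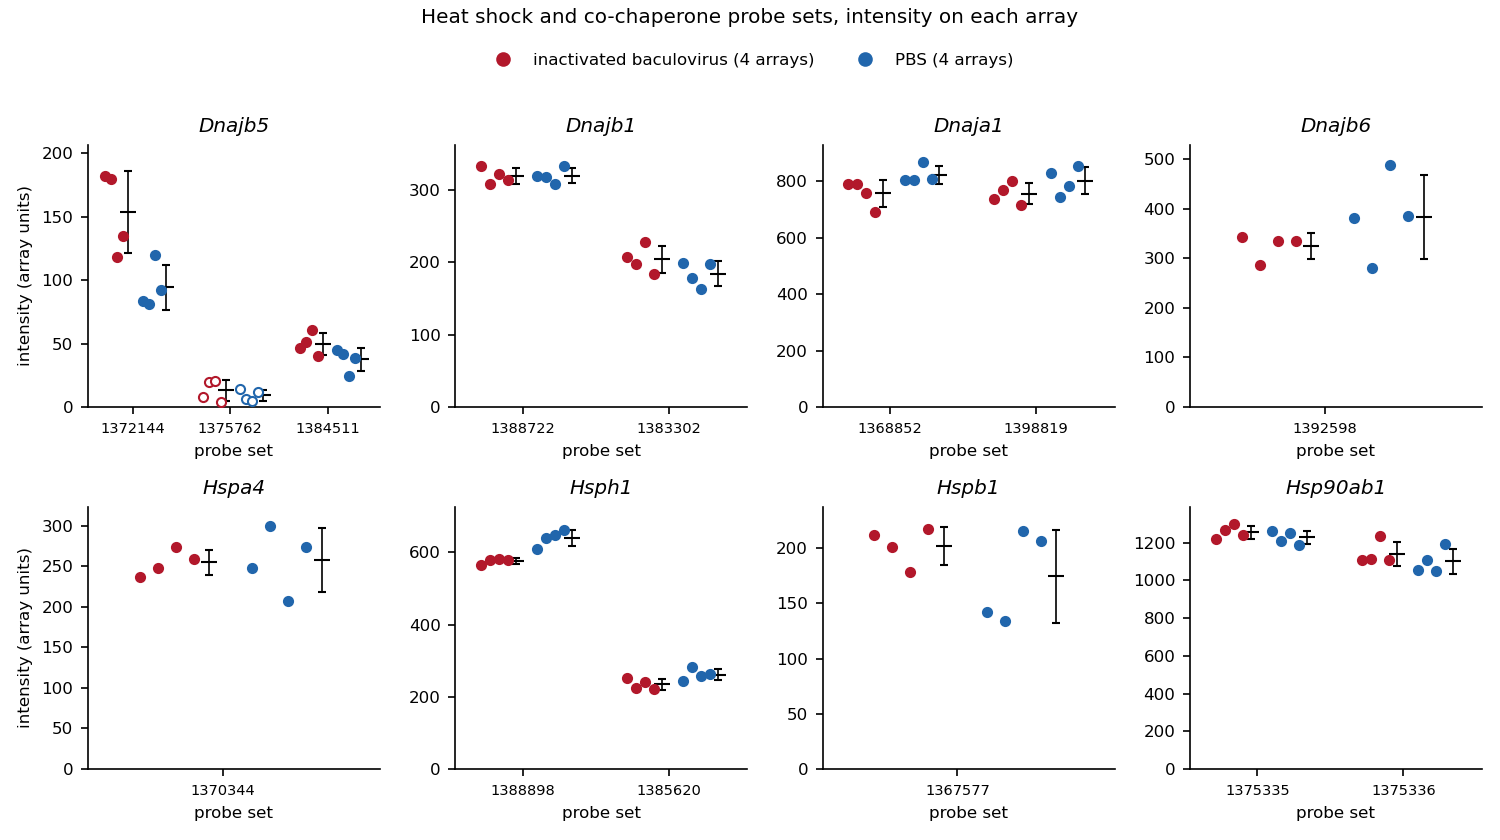
Intensity (linear array units, axes from 0) of the 14 member probe sets on each array, with inactivated baculovirus in red and PBS in blue, replicates 1 to 4 from left to right within each cluster; black bars are the mean and SD of 4 arrays, and open points mark the probe set below the level filter. The red and blue points separate for the main probe sets of Hsph1 and Dnaja1 and nearly so for that of Dnajb5, and overlap elsewhere.

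Of the Hsp110 exchange factors, Hsph1 was lower and Hspa4 level. Hsph1, also called Hsp105, read 565, 580, 581 and 579 after inactivated baculovirus and 611, 641, 649 and 663 after PBS on its main probe set, 1388898_at. The groups did not overlap, although the means of 576 ± 7.86 and 641 ± 22.0 (SD, n = 4 each) differ by a fold of only 0.9. The difference was -0.15 ± 0.06 (log2 ± SE) and lay between -0.17 and -0.13 with any 1 array left out. Its within-group SD of 0.04 was lower than that of all but 0.172% of the probe sets tested. The second probe set, 1385620_at, gave the same difference, -0.15 ± 0.08, with 251, 224, 242 and 221 against 244, 282, 257 and 262. There 3 of 4 inactivated baculovirus arrays were below every PBS array.

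Counted over the 13 member probe sets, the groups did not overlap for 2, both lower (Hsph1 and Dnaja1), and for 0 higher, beside 3.86% of all probe sets tested in either direction. Of these, 2.31% were lower and 1.55% higher, and since the list was chosen on this comparison nothing is read from the count.

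Hspa4 read 237, 248, 274 and 259 after inactivated baculovirus and 248, 300, 207 and 274 after PBS. Again the PBS arrays held both extremes, and the difference was -0.01 ± 0.10 (log2 ± SE). It was -0.10 without PBS replicate 3, 0.07 without PBS replicate 2 and 0.03 without PBS replicate 4.

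Hspb1, the small heat shock protein Hsp27, read 212, 201, 178 and 217 after inactivated baculovirus and 142, 134, 215 and 206 after PBS. PBS replicates 1 and 2 were low, and PBS replicates 3 and 4 lay among the inactivated baculovirus arrays. The means were 202 ± 17.1 and 174 ± 42.1 (SD, n = 4 each), a difference of 0.22 ± 0.14 (log2 ± SE) that was 0.11 without PBS replicate 2, 0.14 without PBS replicate 1, 0.32 without PBS replicate 3 and 0.30 without PBS replicate 4. In brain, reactive astrocytes and vessels are known sources of Hspb1. Of 6 astrocyte markers 4 had a higher and 2 a lower mean, and the list's mean level, centred on each gene, ran from -0.01 to 0.05 after inactivated baculovirus and from -0.07 to 0.03 after PBS. The filament gene Gfap was at 1551, 1716, 1756 and 1660, and at 1507, 1449, 1757 and 1876 after PBS. The water channel gene Aqp4 was at 983, 948, 977 and 889, and at 890, 1086, 1027 and 1059 after PBS. PBS replicates 1 and 2, low for Hspb1, were the lower PBS arrays for Gfap. For Aqp4, PBS replicate 1 was the lowest PBS array and PBS replicate 2 the highest. The astrocyte list's level on PBS replicates 1 to 4 was -0.07, -0.02, 0.01 and 0.03. After inactivated baculovirus it was highest, at 0.05, on replicate 3, the lowest array of that group for Hspb1. For vessels, the endothelial and mural list's level on inactivated baculovirus replicates 1 to 4 was 0.09, 0.06, 0.07 and -0.03. On PBS replicates 1 to 4 it was -0.07, -0.01, -0.07 and -0.05. Whether astrocytes or vessels have a part in the Hspb1 values was not tested.

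Hsp90ab1, the constitutive cytosolic Hsp90, was the brightest member and nearly level. Its main probe set, 1375335_at, read 1217, 1265, 1298 and 1242 after inactivated baculovirus and 1264, 1208, 1249 and 1190 after PBS, a difference of 0.03 ± 0.06 (log2 ± SE). The other, 1375336_at, read 1106, 1112, 1237 and 1109 against 1055, 1110, 1049 and 1191, a difference of 0.05 ± 0.07. Both sets of groups overlapped. Within groups its main probe set varied by an SD of 0.04 on the log2 scale, below all but 0.258% of the probe sets tested. On deviations from the group means the 2 probe sets had r = -0.0919 and rho = -0.143 (exact permutation p = 0.835 and 0.771, Benjamini-Hochberg 0.835 and 0.882).

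By their main probe sets, the members fell into steadier and more variable ones. The within-group SD was 0.04 to 0.07 on the log2 scale for the main probe sets of Hsp90ab1, Hsph1, Dnajb1 and Dnaja1. It was 0.25 for Dnajb5, 0.24 for Hspb1, 0.24 for Dnajb6 and 0.16 for Hspa4. The median was 0.12 over the 8 genes and 0.14 over all genes tested, and 90% of all probe sets tested lay below 0.25. For Dnajb6, Hspb1 and Hspa4 the spread lay among PBS arrays, with SDs of 0.32, 0.32 and 0.21 on the log2 scale against 0.11, 0.12 and 0.08 after inactivated baculovirus. For Dnajb5 both groups were spread, at 0.22 after PBS and 0.28 after inactivated baculovirus. On the second probe sets the within-group SD was 0.08 for Dnaja1, Hsph1 and Hsp90ab1, 0.12 for Dnajb1 and 0.23 for Dnajb5. The split was thus less sharp there, above all for Dnajb1. Dnaja1, Hsph1 and Hsp90ab1 were also the brightest members. These differences in spread were not tested.

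How the 8 genes varied together was examined for all 28 pairs on deviations from the group means, which leave out the difference between the groups on which the list was chosen. By Pearson's r and by Spearman's rho, 0 pairs passed after Benjamini-Hochberg adjustment of exact permutation p-values within groups, and 1 and 2 pairs were under 0.05 before it. Values of r ran from -0.802 to 0.725 with a median of 0.00874, and 14 were positive and 14 negative. Dnajb5 and Hspa4 had the smallest p, at r = -0.767 and rho = -0.857 (exact permutation p = 0.0122 and 0.0139, Benjamini-Hochberg 0.34 and 0.389), with r = -0.467 without PBS replicate 3 and inactivated baculovirus replicate 1. Dnajb5 ran with Dnaja1 at r = 0.725 and rho = 0.738 (exact permutation p = 0.0538 and 0.0642, Benjamini-Hochberg 0.51 and 0.6), and 0.481 without the same 2 arrays. Its value with Hspb1 was r = 0.632 and rho = 0.643 (exact permutation p = 0.0556 and 0.0868, Benjamini-Hochberg 0.51 and 0.608), and 0.424 without them. Dnajb6 ran with Hspb1 at r = 0.716 and rho = 0.738 (exact permutation p = 0.0938 and 0.0417, Benjamini-Hochberg 0.51 and 0.583) and against Hspa4 at r = -0.802 and rho = -0.619 (exact permutation p = 0.109 and 0.156, Benjamini-Hochberg 0.51 and 0.729). Without PBS replicates 2 and 3 these were 0.0801 and 0.152, so both relations of Dnajb6 rested on those 2 arrays.

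Over the 8 arrays as they stood, where the group difference enters and so is given as a description, r ran from -0.73 to 0.702 and 0 of 28 pairs passed after adjustment. Dnajb5 with Hsph1 was at -0.73 there and 0.0744 within groups, and Dnajb5 with Dnaja1 at -0.236 there against the 0.725 within groups. Dnaja1 and Hsph1, the genes with a run of 3 heat shock units in the windows printed above, were at 0.619 and at -7.6e-05 within groups.

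**Figure D4:**
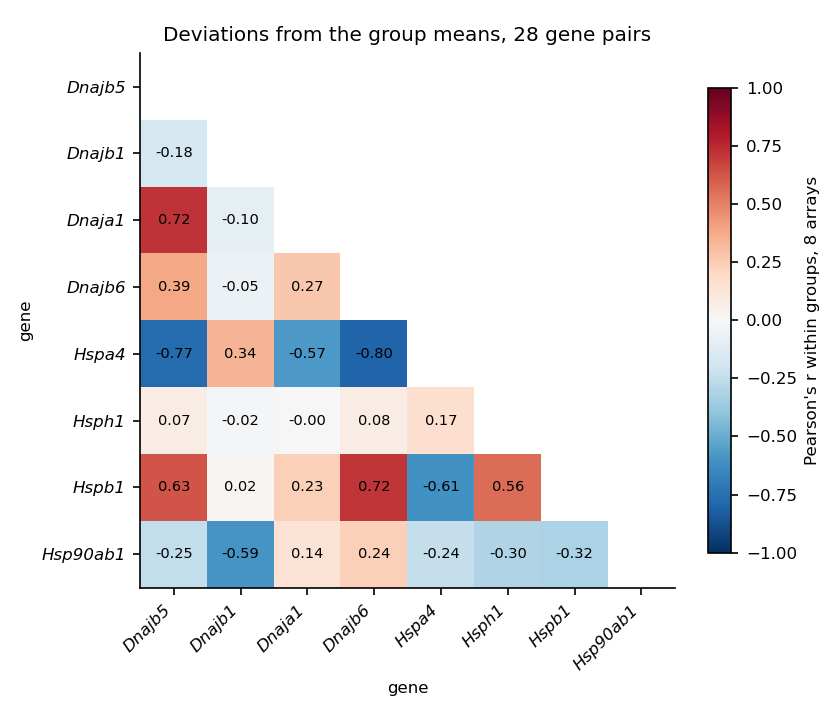
Pearson's r between the log2 levels of the brightest probe sets of each pair of genes, as deviations from the group means over the 8 arrays (28 pairs), red for positive and blue for negative. The deepest cells are Dnajb6 with Hspa4 at -0.80 and Dnajb5 with Hspa4 at -0.77, and none passed after adjustment.

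The beta-actin controls give a check on RNA quality: the log2 level of the 3′ probe set minus that of the 5′ probe set averaged 0.499 ± 0.161 on the 4 inactivated baculovirus arrays, and 0.515 ± 0.0984 on the 4 PBS arrays (SD). For the members no relation to it was detected. Of 8 correlations 0 passed after adjustment and 0 were under 0.05 before it, by either coefficient. They ran from -0.493 for Dnaja1 to 0.276 for Hspa4, and the value for Dnajb5 was r = -0.264 and rho = -0.357 (exact permutation p = 0.519 and 0.389, Benjamini-Hochberg 0.692 and 0.935), with r = -0.343 without inactivated baculovirus replicate 4 and PBS replicate 2. With 8 arrays, such a test finds only strong relations. The labels mention a pair of labelling kits without saying which array had which.

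Outside the list, the genes whose main probe set followed Dnajb5 most closely were found by Pearson's r on deviations from the group means, over 8 arrays and 10531 genes. They were Zfp120 at 0.98, As3mt at 0.971, Shmt1 at 0.963, Spc25 at 0.958 and Tardbp at 0.955. Their differences between groups were -0.22, 0.06, -0.01, 0.18 and -0.09 on the log2 scale, none of the size seen for Dnajb5. With this many genes and so few arrays, values of this height are given as a description only. Tardbp encodes TDP-43, an RNA-binding protein, and its main probe set was the brightest of the 5, at 246 ± 20.9 and 264 ± 19.6 (SD, n = 4 each). Of its 2 other probe sets, 1 had a group difference of opposite sign.

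The other chaperone genes were taken from 10 lists with 99 tested genes that are not members. Limma called 0 of them after adjustment, and under an unadjusted p of 0.05 it put 4 higher and 4 lower, where the shares of all probe sets were 2.51% and 4.22%. The methods' t-test called 0 after adjustment and put 6 under 0.05 before it, beside the 6.72% given above. Means were higher for 58 and lower for 41, beside 55.7% higher among all genes tested. The median difference was 0.03 on the log2 scale, and single genes ran from -0.23 to 0.31, beside -0.21 to 0.22 for the members other than Dnajb5. The groups did not overlap for 2 of the 99 genes, both lower, beside the 2.31% given above. Adjusted p-values of the genes named next ran from 0.71 to 0.988 in limma.

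Other Hsp70 and Hsp110 genes had 2 of 5 higher and 3 lower. Hspa1a, the Hsp70 that is nearly silent without stress and the usual readout of a heat shock response, was dim at 52.7, 59.1, 41.4 and 43.5 after inactivated baculovirus and 37.7, 45.8, 24.2 and 45.3 after PBS. The groups overlapped, and its difference was 0.28 ± 0.15 (log2 ± SE, limma adjusted p = 0.754). Hspa14, a ribosome-associated Hsp70, stood at -0.12 ± 0.13 and Hspa4l, an Hsp110 relative of Hspa4, at -0.06 ± 0.10. Hspa1b had no single-symbol probe set, and no level is given for it.

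Other J-domain genes were split, with 12 of 23 higher and 11 lower. Dnajb4, the close relative of Dnajb1 and Dnajb5, read 250, 240, 252 and 204 after inactivated baculovirus and 263, 268, 275 and 276 after PBS. It was the 1 gene of this list whose groups did not overlap, at -0.19 ± 0.08 (log2 ± SE, limma adjusted p = 0.732), and its direction was opposite to that of Dnajb5. Dnaja4 stood at 0.17 ± 0.09 and Dnajc4 at 0.21 ± 0.12, and 0 of the 23 passed.

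Cofactors of Hsp70, which exchange its nucleotide or link it to other machines, had 5 of 9 higher and 4 lower. St13, which encodes the Hsp70-interacting protein Hip, read 394, 406, 386 and 417 after inactivated baculovirus and 482, 458, 445 and 436 after PBS. The groups did not overlap, and the difference was -0.18 ± 0.07 (log2 ± SE, limma adjusted p = 0.71), with the opposite sign on its other probe set. Bag6 stood at 0.18 ± 0.08, also with the opposite sign on its other probe set, Hspbp1 at 0.12 ± 0.08, and Bag3, a strongly stress-induced partner of Hsp70 and small heat shock proteins, at 0.05 ± 0.11.

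Co-chaperones of Hsp90 had 11 of 16 higher and 5 lower, with a median of 0.10. Fkbp4, an immunophilin of steroid receptor complexes, read 204, 194, 218 and 182 after inactivated baculovirus and 172, 162, 110 and 199 after PBS. PBS replicate 3 was the low array there, and the difference was 0.31 ± 0.14 (log2 ± SE, limma adjusted p = 0.721). Fkbp8 stood at 0.23 ± 0.09, with the opposite sign on its other probe set. Chordc1, a heat-inducible Hsp90 partner, stood at -0.23 ± 0.11.

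The small heat shock proteins other than Hspb1 had 4 of 4 tested genes higher, with 0 past the threshold and 0 under an unadjusted p of 0.05 in limma. Hspb6, a muscle and astrocyte protein, stood at 0.27 ± 0.14, Cryab, the alpha B crystallin of glia, at 0.12 ± 0.09, Hspb7 at 0.08 ± 0.13 and Hspb8, a partner of Bag3, at 0.02 ± 0.14 (log2 ± SE). For Hspb6, PBS replicate 4 was at 301 and the other PBS arrays at 201 to 209, against 283, 343, 252 and 232 after inactivated baculovirus.

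The list of heat shock transcription factors, which also holds their binding protein Hsbp1, had 2 of 4 higher and 2 lower. Hsbp1 was 1 of the lower ones, at -0.0038. Hsf1, which drives the heat shock response, was at 98.3 ± 5.42 and 89.4 ± 5.80 (SD, n = 4 each), a difference of 0.12 ± 0.09 on the log2 scale (limma adjusted p = 0.797). Hsf2 stood at -0.19 ± 0.10, with 1 of 3 other probe sets of opposite sign, and the dim Hsf4 at 0.30 ± 0.13. The 13 tested genes listed as targets of heat shock factor 1 outside the members had 7 higher and 6 lower and a median of 0.0018. Those with the smallest limma p went both ways: Fkbp4 at 0.31, Dnajb4 at -0.19 and Chordc1 at -0.23. These genes also stand in other lists.

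The large chaperonin of the cytosol, CCT, and its partner prefoldin had 6 of 13 genes higher and 7 lower, all between -0.10 and 0.10. Cct2 stood at -0.10 ± 0.09, Cct5 at -0.08 ± 0.07 with the opposite sign on its other probe set, and Pfdn6 at 0.10 ± 0.10 (log2 ± SE). Mitochondrial chaperones had 8 of 10 higher and 2 lower, with Hspd1, the mitochondrial Hsp60, at -0.10 ± 0.06, Grpel2 at 0.17 ± 0.14 and Dnajc11 at 0.10 ± 0.12. Chaperones of the endoplasmic reticulum had 8 of 15 higher and 7 lower, with Dnajb9 at -0.23 ± 0.09, Canx at -0.15 ± 0.08 and Calr at 0.30 ± 0.19. For Calr, PBS replicate 3 was the low array, at 505 against 1041 to 1089 on the other PBS arrays. None of the genes in these 3 lists passed in limma, and 1, Dnajb9, was under an unadjusted p of 0.05.

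**Figure D5:**
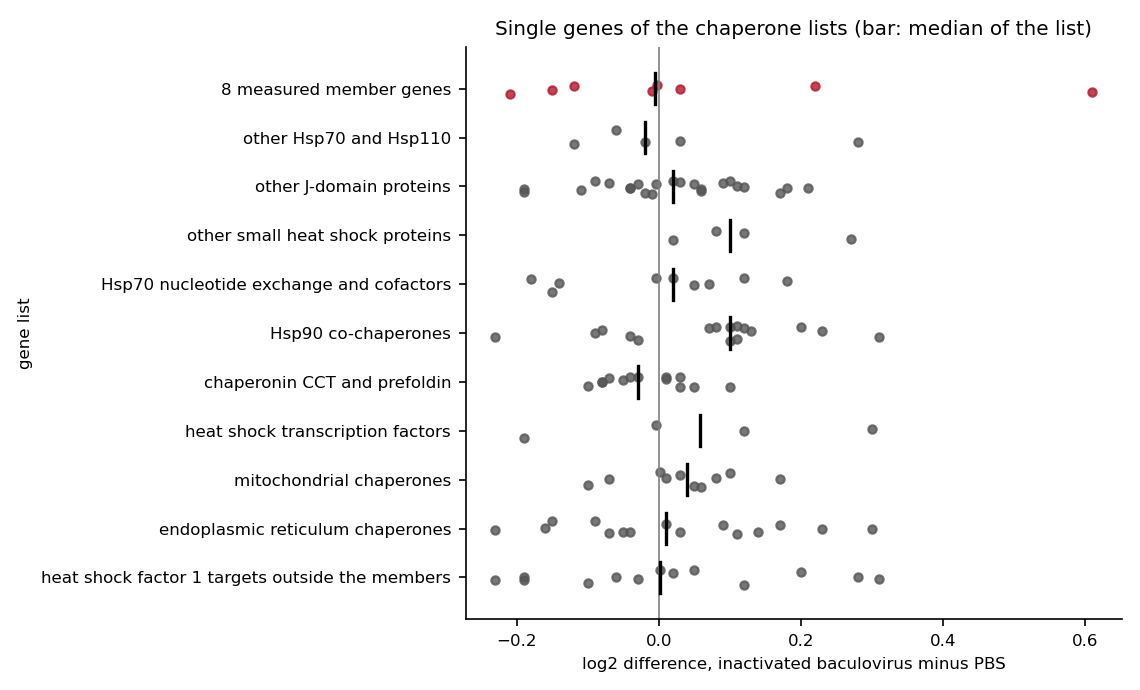
Log2 difference between the group means for each gene of 10 chaperone lists (grey) and for the 8 measured member genes (red), by the brightest single-symbol probe set; black bars are list medians. All grey points lie between -0.23 and 0.31, and Dnajb5 is the red point at 0.61.

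Marker genes of other cell types were set beside these values, with 0 called in any list. All 7 microglia and macrophage markers had higher means. The fractalkine receptor gene Cx3cr1 read 58.8, 60.6, 56.0 and 57.2 after inactivated baculovirus and 37.3, 48.9, 54.7 and 48.7 after PBS, groups that did not overlap, at 0.23 ± 0.11 (log2 ± SE, limma adjusted p = 0.737). Aif1, a microglial calcium-binding protein, stood at 0.15 ± 0.13 with overlapping groups. The list's mean level, centred on each gene, ran from -0.23 to 0.33 after inactivated baculovirus and from -0.37 to 0.17 after PBS. Endothelial and mural markers were higher for 6 of 7, at -0.03 to 0.09 against -0.07 to -0.01, with Pecam1 at 0.18 ± 0.12 and Cldn5 at 0.05 ± 0.08. Of 5 T and NK cell markers 1 was above the level filter and higher, and the list ran from 0.02 to 0.28 against -0.24 to 0.06. Neuronal markers had 3 of 7 higher, at -0.09 to 0.02 against -0.19 to 0.11, and striatal projection neuron markers 2 of 8, at -0.23 to 0.18 against -0.22 to 0.25, with Syt1 at 0.08 ± 0.18 and the dopamine receptor gene Drd1 at -0.18 ± 0.13. The cortical list had 2 of 3 higher, at -0.12 to 0.28 against -0.11 to 0.03, with Neurod6 at -0.12 ± 0.12. Oligodendrocyte markers had 3 of 5 higher, at -0.01 to 0.06 against -0.06 to 0.03. Of the myelin genes, Mbp stood at -0.03 ± 0.08, with the opposite sign on its 2 other probe sets, and Mog at -0.04 ± 0.07. Choroid plexus markers had 4 of 4 higher, at -0.06 to 0.50 against -1.26 to 0.22, with Folr1 at 0.45 ± 0.26 and PBS replicate 4 the low array. Of the red cell markers 1, Hbb, was tested, at 0.81 ± 0.69, and the list ran from -0.59 to 1.23 against -0.94 to 0.99. Microglia levels on replicates 1 to 4 were 0.33, 0.03, 0.23 and -0.23 after inactivated baculovirus and -0.24, -0.37, 0.17 and 0.09 after PBS. The part of these cell types in the chaperone values was not tested.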

How the data were processed

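RNA from 8 rat brain samples was hybridised to Affymetrix Rat Genome 230 2.0 arrays, 4 per group, and scanned with GCOS, per the submitters' processing notes, which also name GCRMA. The deposited values are linear intensities; the sources used here do not state the algorithm, and the trimmed mean of each array (2% off each end) was 100.02, so the authors had scaled the arrays. Array medians of log2(intensity + 16) spanned 5.74 to 5.85 and were left as deposited. Control probe sets (57) were left out. Of the rest, 20826 had 1 gene symbol, 436 several and 9780 none; 20758 gene numbers were found in the RefSeq table, and 0 symbols changed. A gene was represented by its brightest single-symbol probe set.

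The comparison used two-sided limma 3.58.1 tests (R 4.3.3; linear model without a block, eBayes with a variance trend) on probe sets above the 40th percentile of mean level, with Benjamini-Hochberg adjustment at 0.05. Correlations used exact two-sided permutation tests over arrays, or within groups for deviations from group means (Python 3.11.15). The tests of member pairs planned over the 8 arrays as they stood include the group difference, so the text rests on the deviations. The number of arrays limits precision: the 95% interval of a log2 difference reached 0.231 to either side for the median probe set. The limma p-values and standard errors rest on the spread between these samples, which eBayes draws towards that of probe sets of like level. For the steadiest members this widens the standard error: the main probe set of Hsph1 had a within-group SD of 0.04 and an SE of 0.06. Simulated data with 200 of 18625 probe sets changed gave back 68% of the 1.5-fold changes and 99% of the 2-fold changes. Wrong calls numbered 8 in each, and data without change gave 0 calls. The simulated noise came from limma's own variance model and was independent between arrays, without outlying arrays or shared animals. These shares therefore check the code and may not hold for the real arrays.

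The members and lists were chosen with earlier results of these data known. Genes named were all members, the 3 with the smallest p in each list, a fixed set (Hspa1a, Hspa1b, Bag3, Hsf1, Hsf2, Cryab, Hspb8), the 5 most like Dnajb5, and the first 2 of each marker list. Alternatives were pseudocounts of 1 and 64, quantile and median scaling, other level filters, array weights, variance settings, a block for the replicate number, the methods' t-test, averaging the probe sets of a gene, and leaving out each array. Same-numbered arrays did not deviate together (r between -0.005 and 0.016 over 4 pairs).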

Additional observations from a re-analysis of the deposited data

Results flagged for a closer look

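Single arrays stood away from the other 3 of their group by a gap above Dixon's critical value for 4 samples, for 11 of 136 groups of 4 arrays examined, where chance gives about 1 in 20. Among members, Dnaja1 was at 868 on PBS replicate 3 against 804 to 808 on the other PBS arrays, Dnajb6 at 287 on inactivated baculovirus replicate 2 against 335 to 343, Hsph1 at 565 on inactivated baculovirus replicate 1 against 579 to 581, and the second probe set of Hsp90ab1 at 1237 on inactivated baculovirus replicate 3 against 1106 to 1112. Among the other chaperones, Hspb6 was at 301 on PBS replicate 4 against 201 to 209, Cryab at 514 on inactivated baculovirus replicate 3 against 619 to 630, Cct5 at 693 on inactivated baculovirus replicate 1 against 773 to 786, and Calr at 505 on PBS replicate 3 against 1041 to 1089. Among markers, Slc17a7 was at 454 on PBS replicate 3 against 1039 to 1108, Ttr at 47.7 on PBS replicate 4 against 1787 to 1888, and Alas2, a red cell gene below the level filter, at 19.1 on PBS replicate 4 against 2.73 to 4.15.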

How the results depend on the processing

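In all 20 settings run, 0 probe sets passed an adjusted p of 0.05, and 0 other chaperone genes and 0 member pairs or members against beta-actin passed in theirs; 709 to 1957 probe sets were under an unadjusted 0.05. With 1 array left out, 3 to 5 of the 8 members had a higher mean, and 5 did so without inactivated baculovirus replicate 2 or PBS replicate 4. Dnajb5 stayed between 0.45 and 0.69 under the other pseudocounts and scalings, and averaging probe sets moved Dnajb1 to 0.07, where its dimmer probe set enters. Hspa4 turned to 0.07 without PBS replicate 2. With the replicate number as a block (replicate block), 0 probe sets passed and 1172 were under an unadjusted 0.05, against 1254 without it; 0 of 4 arrays correlated best with its own number. It changed no call. Depth is not defined for arrays, and detection calls were not used here.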
